A study of Mus musculus with 6 samples.

Results

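The genes described here encode the NF-kB family of transcription factors and the proteins that hold it in check. The members are 10 mouse genes chosen by name among the 55487 genes in each file: the subunits Nfkb1, Nfkb2, Rel, Rela and Relb, the inhibitors Nfkbia, Nfkbib and Nfkbie, the nuclear co-factor Bcl3, and the feedback inhibitor Tnfaip3. All 10 passed the filter on low counts, as did 12486 genes in all. Their transcripts were measured by RNA sequencing in naive CD4+ T cells isolated fresh from mesenteric lymph nodes (mLN, 3 libraries), which drain the gut, or from spleen (3 libraries). All the mice were untreated, wild type (WT) and of the C57BL6/J strain. The labels give no age and no sorting scheme, and do not say whether the libraries came from separate animals, so p-values reflect only library-to-library spread, which may be technical.

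NF-kB proteins act as dimers that bind kappaB sites in DNA. Nfkb1 and Nfkb2 encode precursors that are processed into DNA-binding subunits without an activation domain, whereas Rela, Rel and Relb carry one. In a resting cell the IkB proteins encoded by Nfkbia, Nfkbib and Nfkbie keep the dimers in the cytoplasm, until signals from the T cell receptor or from receptors of the tumour necrosis factor family lead the IkB kinase to mark them for destruction. A second, slower route, governed by the kinase gene Map3k14 and its restraint Traf3, processes the Nfkb2 precursor and frees Relb. Bcl3 is an IkB relative that works in the nucleus with dimers of the processed Nfkb1 and Nfkb2 products, and Tnfaip3 encodes a ubiquitin-editing enzyme that shuts the pathway off after a stimulus.

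Several family members are themselves textbook NF-kB targets, so the sequence around their start sites is shown first. RefSeq promoter windows on GRCm38.p6, running from 250 bases before to 50 bases after a start, were found for 8 of the 10 members, all but Nfkb1 and Relb. The kappaB consensus motif, a 10-base motif searched on both strands, was present in 6 of these 8, namely Bcl3, Nfkb2, Rel, Nfkbia, Nfkbie and Tnfaip3, and these letters were not in the windows of Rela and Nfkbib. Over all 27025 genes with such a window, 9.55% held at least 1 match. Among the textbook target genes listed beside the members, 9 of 20 with a window held one. Each match is printed with 10 bases on either side and the motif in capitals, 5′ to 3′ on the strand of the gene. In Nfkb2 only the matches of the first of its windows are printed, and in Nfkb2 at position -39 and in Rel a second match overlaps the one shown, shifted by 1 base. Position -1 is the base before the RefSeq start and a match describes letters only.
Bcl3 (chr7:19822734-19822763, minus strand, motif from position 3): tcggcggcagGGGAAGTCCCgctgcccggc
Nfkb2 (chr19:46304688-46304717, plus strand, motif from position -39): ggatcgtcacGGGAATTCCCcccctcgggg
Nfkb2 (chr19:46304716-46304745, plus strand, motif from position -11): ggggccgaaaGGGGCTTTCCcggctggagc
Rel (chr11:23771042-23771071, minus strand, motif from position -92): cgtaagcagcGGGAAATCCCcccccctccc
Nfkbia (chr12:55492657-55492686, minus strand, motif from position -29): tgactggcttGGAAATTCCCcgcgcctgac
Nfkbie (chr17:45555584-45555613, plus strand, motif from position -106): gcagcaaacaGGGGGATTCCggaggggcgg
Tnfaip3 (chr10:19015516-19015545, minus strand, motif from position -125): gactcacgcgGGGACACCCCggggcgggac
Tnfaip3 (chr10:19015403-19015432, minus strand, motif from position -12): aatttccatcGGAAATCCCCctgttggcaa

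The libraries held between 13205499 and 20054205 expected counts, the read counts per gene estimated by RSEM. Members are given as scaled counts (CPM), the counts relative to a library total adjusted by TMM factors, and each member had at least 201 expected counts in every library. A floor of 3 counts corresponds to between 0.149 and 0.225 CPM, for counting error only. The 7 markers of naive CD4+ T cells were all detected and summed to 4842 to 4947 CPM in mLN libraries and 5137 to 5356 CPM in spleen libraries. Markers of other cells were present at lower levels, and most of those tested fell in mLN: of 9 B cell genes 7 fell and 0 rose (summed level 346 to 374 CPM in mLN and 507 to 542 CPM in spleen, mostly Ighm), of 8 tested macrophage and monocyte genes 6 fell (13.9 to 15.4 CPM in mLN and 52.3 to 57.5 CPM in spleen), and all 7 tested neutrophil genes fell (0.225 to 1.24 CPM in mLN and 34.8 to 40.6 CPM in spleen), with Ly6g at 0. Of 3 tested dendritic cell genes 2 fell (0.751 to 1.10 CPM in mLN and 5.55 to 9.97 CPM in spleen). Of 4 tested memory and effector T cell genes 1 fell, and of the stromal and endothelial genes the 1 tested fell. Of 3 tested NK cell, 2 CD8 T cell and 5 regulatory T cell genes 0 rose and 0 fell. Over all 12486 genes, 13.5% fell and 16.1% rose in the same test, which is described below. Regulatory T cell genes summed to 11.8 to 19.3 CPM in mLN and 15.6 to 18.9 CPM in spleen. These cells also express NF-kB genes, the part of their lower level in the results below was not tested, and in bulk RNA fewer cells of a type and less RNA per cell cannot be told apart.

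Most of the members were higher in mLN cells. Of the 10 members, 7 rose in mLN (Nfkb1, Nfkb2, Rela, Relb, Bcl3, Nfkbie and Tnfaip3) and 0 fell in edgeR's two-sided quasi-likelihood test with Benjamini-Hochberg adjustment over all genes (threshold 0.05), while Rel, Nfkbia and Nfkbib did not pass. Of all 12486 genes tested, 16.1% were called higher and 13.5% lower, 29.6% in all. The share of members called higher was above that background, whereas among 10 genes a count of 0 lower is close to 13.5%. The members were chosen with earlier results of these data known, so these counts are descriptions and carry no test. The median log2 fold change, mLN minus spleen, was 0.43 over the members and -0.012 over all genes tested. The scaled counts of the organs did not overlap for 8 members, higher in mLN each time, against 21.5% of all genes tested that were higher in this way and 20.3% that were lower.

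**Figure D1:**
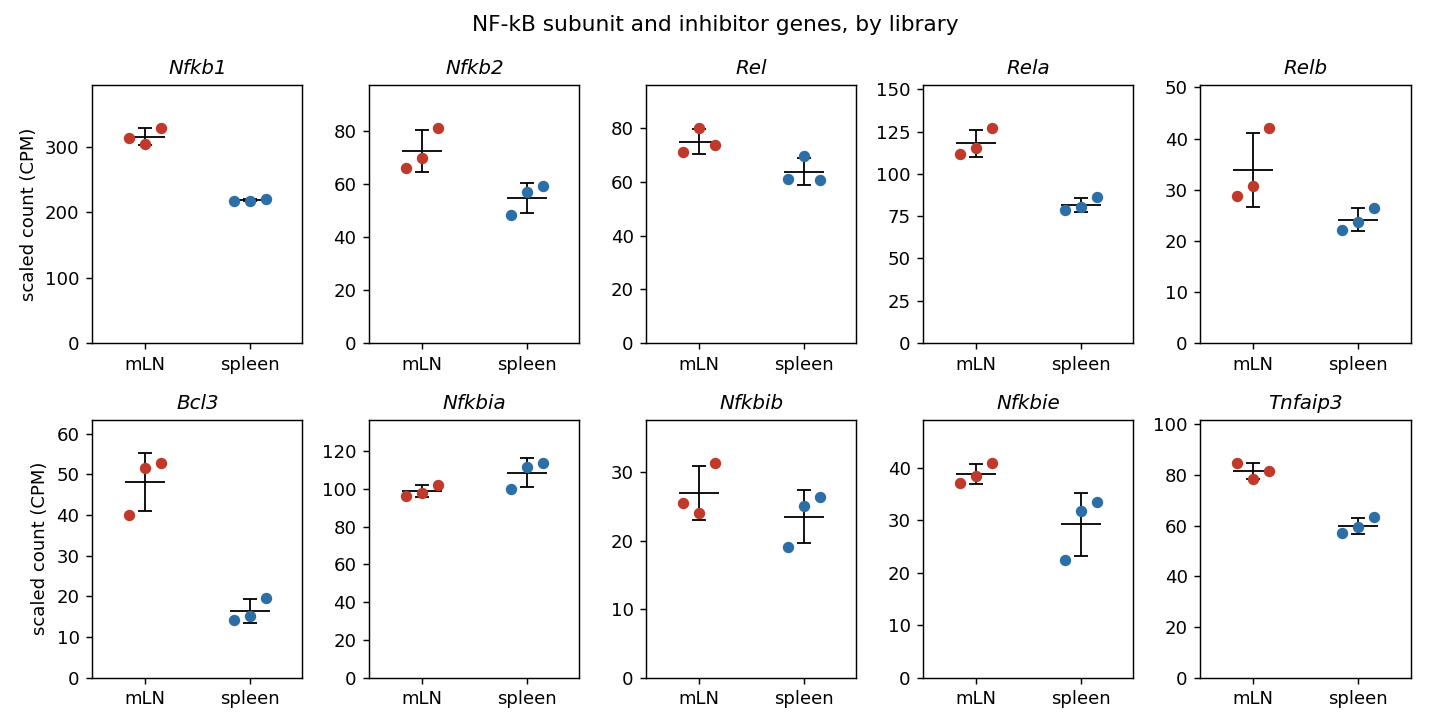
Scaled counts (CPM, linear axis from 0) of the 10 members in mLN (red, left) and spleen (blue, right); each point is 1 library and the bars give the mean and SD (n = 3 each). The points of the organs do not overlap in 8 panels and overlap in those of Nfkbia and Nfkbib, and Bcl3 shows the widest gap relative to its level.

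Bcl3 showed the largest difference. It had 39.9, 51.4 and 52.8 CPM in mLN replicates 1, 2 and 3, against 14.2, 15.2 and 19.7 CPM in spleen replicates 1, 2 and 3. Even the lowest mLN library lay above the highest spleen library, and the gap between them was wider than the range within either organ. Bcl3 averaged 48.1 ± 7.09 CPM in mLN and 16.4 ± 2.91 CPM in spleen (SD, n = 3 each), a 2.93-fold rise (95% interval 2.39 to 3.59; log2 value 1.55, standard error 0.141, adjusted p = 7.94e-08, edgeR). Its log2 value, taken with its sign, was at or above that of 99.6% of all tested genes, where any fall counts as a lower value. Bcl3 (ENSMUSG00000053175) lies on the minus strand at chr7:19808462-19822770 of the mm10 genome, and both antisense genes that overlap it, Gm16175 and Gm16174, had at most 11 counts in any library.

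Among the subunits, Nfkb1 and Rela, which together form the classical NF-kB dimer, rose by nearly the same factor on the scaled counts. Nfkb1 had 314, 305 and 329.6 CPM in mLN replicates 1 to 3, against 218, 218 and 220.0 CPM in spleen replicates 1 to 3. The spleen libraries were almost identical and every mLN library exceeded them, giving 316 ± 12.5 CPM in mLN and 219 ± 1.03 CPM in spleen (SD, n = 3 each), and the log2 difference was 0.53 (standard error 0.0598, adjusted p = 1.02e-06, edgeR). Rela, which carries the main activation domain of the classical dimer, had 112, 115 and 127 CPM in mLN replicates 1 to 3, against 78.5, 80.1 and 86.3 CPM in spleen replicates 1 to 3. Its groups were likewise apart, with means of 118 ± 8.0 CPM in mLN and 81.6 ± 4.11 CPM in spleen (SD, n = 3 each) and a log2 difference of 0.53 (standard error 0.0814, adjusted p = 3.77e-05, edgeR). Across the 6 libraries the centred log2 profiles of these 2 genes lay nearer to each other than either did to any other member, with a root mean square distance of 0.0509. A distance this small requires nearly equal log2 differences, so it in part restates the values above. Tnfaip3 lay at 0.0681 from Nfkb1. The ratio of Nfkb1 to Rela in TPM, a unit of transcript abundance adjusted for transcript length, overlapped between the organs, at 1.84 ± 0.185 in mLN and 1.65 ± 0.163 in spleen (SD, n = 3 each). In some other settings their log2 differences were less alike. Removing a trend of the counts with transcript GC content gave 0.51 for Nfkb1 and 0.30 for Rela. Removing a trend with transcript length gave 0.45 for Nfkb1 and 0.55 for Rela. On log2 TPM centred on each library's median they were 0.54 for Nfkb1 and 0.39 for Rela. Whether the 2 genes differ was not tested.

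The subunits of the slower route also rose, with calls that held in fewer settings. Nfkb2 had 66.4, 70.1 and 81.3 CPM in mLN replicates 1 to 3, against 48.5, 57.1 and 59.3 CPM in spleen replicates 1 to 3. The organs did not overlap, with spleen replicate 3 and mLN replicate 1 the nearest to each other, and the rise was 1.32-fold (log2 fold change 0.40, standard error 0.0985, adjusted p = 0.00352, edgeR). Relb, the partner of the processed Nfkb2 product, had 28.8, 30.6 and 42.1 CPM in mLN replicates 1 to 3, against 22.1, 23.7 and 26.5 CPM in spleen replicates 1 to 3. The mLN replicate 3 stood well above the other mLN libraries, and the rise was 1.41-fold (log2 value 0.49, adjusted p = 0.0110, edgeR). Omitting that library brought the log2 value to 0.29 and ended the call (adjusted p = 0.138), and so did omitting spleen replicate 1 (0.0577) or spleen replicate 2 (0.0530). Nfkb2 and Relb both lost their calls once a smooth trend of the counts with transcript GC content was removed from each library (adjusted p 0.0791 for Nfkb2 and 0.126 for Relb, edgeR), and on median-centred log2 TPM (0.0871 for Nfkb2 and 0.186 for Relb, limma). Nfkb2 overlaps genes on the opposite strand, of which AC114539.1 had 219 counts on average, and since the strand setting of the counting is not given in the sources used here, reads of such neighbours cannot be told apart.

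Rel, the subunit that T cells need for full production of interleukin-2, had 71.2, 80.1 and 73.8 CPM in mLN replicates 1 to 3, against 61.2, 69.5 and 60.9 CPM in spleen replicates 1 to 3. The groups were separated by less than the spread within either of them. The 1.17-fold difference (95% interval 1.03 to 1.33) did not pass, with an adjusted p of 0.0532 (edgeR). It passed without spleen replicate 2 (adjusted p = 0.0464), on log2 TPM (0.0393, limma; 0.331 with the libraries centred) and with the GC trend removed (0.000378, edgeR), and its log2 fold change of 0.23 became -0.060 once a trend with transcript length was removed (adjusted p = 0.680). Rel has the longest transcript of the members, 7466 nt, and the lowest transcript GC content, 42.5%. Across the tested genes fold change and transcript length had a Spearman rho of 0.370; genes are not independent of each other, and the part of this trend in the difference of Rel was not tested further.

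Of the 3 cytoplasmic IkB genes Nfkbie passed the test and Nfkbia and Nfkbib did not, and the differences between their fold changes were not tested. Nfkbia, the IkB that is destroyed and made anew most quickly, was the only member with a fold change below 1. It had 96.4, 97.9 and 102 CPM in mLN replicates 1 to 3, against 99.7, 112 and 114 CPM in spleen replicates 1 to 3. The ranges overlapped, with means of 98.8 ± 3.0 CPM in mLN and 108 ± 7.66 CPM in spleen (SD, n = 3 each). The ratio of 0.911 had a 95% interval of 0.813 to 1.02 and an adjusted p of 0.225 (edgeR), which leaves a rise as large as that of Nfkb1, at 1.45-fold, outside the interval. The log2 fold change of -0.13 was 0.18 on log2 TPM (adjusted p = 0.268, limma), a scale on which the median of all genes was 0.21, and -0.064 with the libraries centred on their medians (adjusted p = 0.736). It was 0.030 with the length trend removed (adjusted p = 0.828) and -0.26 with the GC trend removed, where it was called lower (adjusted p = 0.00279). As the member with a kappaB match whose fold change was below 1, Nfkbia is shown with the 250 bases before the start at chr12:55492648-55492897 on the minus strand (RefSeq, GRCm38.p6), with the kappaB match in capitals.
Nfkbia: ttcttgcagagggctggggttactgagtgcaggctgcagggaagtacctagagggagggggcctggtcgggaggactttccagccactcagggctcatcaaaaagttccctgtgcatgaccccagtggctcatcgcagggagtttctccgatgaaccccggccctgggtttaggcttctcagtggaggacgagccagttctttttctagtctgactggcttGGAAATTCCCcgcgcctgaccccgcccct

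Nfkbib, an IkB that is turned over more slowly, had 25.6, 24.0 and 31.4 CPM in mLN replicates 1 to 3, against 19.2, 25.1 and 26.4 CPM in spleen replicates 1 to 3. The ranges overlapped, and the 1.15-fold difference (95% interval 0.933 to 1.41) had an adjusted p of 0.330 (edgeR). Sirt2, on the opposite strand, overlaps it and had 749 counts on average, more than Nfkbib in any library. Nfkbie, the third IkB, had 37.0, 38.4 and 40.9 CPM in mLN replicates 1 to 3, against 22.3, 31.7 and 33.5 CPM in spleen replicates 1 to 3. The mLN libraries were close together and all above the spleen libraries, among which replicate 1 was the lowest. The rise was 1.33-fold (log2 value 0.41, adjusted p = 0.0236, edgeR). Omitting spleen replicate 1 brought the log2 value to 0.25 and ended the call (adjusted p = 0.165). The call was also lost, at log2 values nearer to the reported one, without mLN replicate 2 (0.41, adjusted p = 0.0609), without mLN replicate 3 (0.36, adjusted p = 0.0731) and on median-centred log2 TPM (0.41, adjusted p = 0.129, limma). With the GC trend removed it was lost at a log2 value of 0.27 (adjusted p = 0.0736).

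Tnfaip3, the feedback enzyme, rose without overlap between the organs, as the classical subunits did. It had 84.8, 78.4 and 81.7 CPM in mLN replicates 1 to 3, against 57.1, 59.4 and 63.4 CPM in spleen replicates 1 to 3. The organs were separated by several times the SD of either, at 81.7 ± 3.20 CPM in mLN and 60.0 ± 3.15 CPM in spleen (SD, n = 3 each). The fold change was 1.36 (95% interval 1.21 to 1.54; log2 standard error 0.0843, adjusted p = 3.65e-04, edgeR), and its log2 value of 0.45 was 0.28 with the length trend removed (adjusted p = 0.0194).

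Per length, the classical subunit genes and Nfkbia dominated the family in both organs. In mLN cells the order was Nfkb1 at 163 ± 7.45 TPM, Nfkbia at 143 ± 10.8, Rela at 89.5 ± 8.43, Bcl3 at 49.0 ± 4.41, Nfkbib at 38.7 ± 5.88, Nfkb2 at 36.2 ± 3.98, Tnfaip3 at 29.3 ± 1.17, Relb at 27.2 ± 6.64, Nfkbie at 23.8 ± 1.04 and Rel at 14.9 ± 0.917 TPM (SD, n = 3 each). In spleen cells it was Nfkbia at 127 ± 16.6 TPM, Nfkb1 at 93.9 ± 2.69, Rela at 57.2 ± 4.77, Nfkbib at 28.4 ± 4.43, Nfkb2 at 23.1 ± 2.46, Tnfaip3 at 17.8 ± 1.17, Relb at 16.7 ± 2.17, Nfkbie at 14.9 ± 3.02, Bcl3 at 13.8 ± 2.39 and Rel at 10.6 ± 0.778 TPM (SD, n = 3 each). Nfkbia ranked below Nfkb1 in every mLN library and above it in every spleen library, and Bcl3 stood directly below Rela in mLN cells and directly above Rel in spleen cells. Some neighbours in these orders differed by less than the larger of their SDs: in mLN Nfkbib and Nfkb2, Tnfaip3 and Relb, and Relb and Nfkbie, and in spleen Tnfaip3 and Relb, Relb and Nfkbie, and Nfkbie and Bcl3.

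The shares of the subunits overlapped between the organs, while the ratio of IkB to subunit transcripts did not. Nfkb1 supplied 49.4 ± 3.16% of the summed subunit TPM in mLN and 46.6 ± 2.28% in spleen, Rela 26.99 ± 1.32% in mLN and 28.4 ± 1.48% in spleen, and Rel 4.50 ± 0.467% in mLN and 5.26 ± 0.513% in spleen (SD, n = 3 each). The shares of all 5 subunits overlapped between the organs. Summed IkB TPM over summed subunit TPM was 0.575, 0.666 and 0.626 in mLN replicates 1 to 3, against 0.719, 0.940 and 0.870 in spleen replicates 1 to 3. Every mLN library lay below every spleen library. Within the IkB sum, Nfkbia made up 69.6 ± 2.62% in mLN and 74.6 ± 1.42% in spleen, and Nfkbie 11.6 ± 0.433% in mLN and 8.74 ± 0.719% in spleen (SD, n = 3 each), both without overlap. The TPM of Bcl3 relative to Nfkb1 was 0.301 ± 0.0394 in mLN and 0.147 ± 0.0291 in spleen (SD, n = 3 each), again without overlap. These ratios are taken within a library and do not depend on how libraries are scaled to each other, and as descriptions of chosen genes they carry no test. Nfkbia has a shorter transcript than Nfkb1, at 1264 and 3038 nt on average in mLN, and the share of the trend with length in the ratio was not tested.

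**Figure D2:**
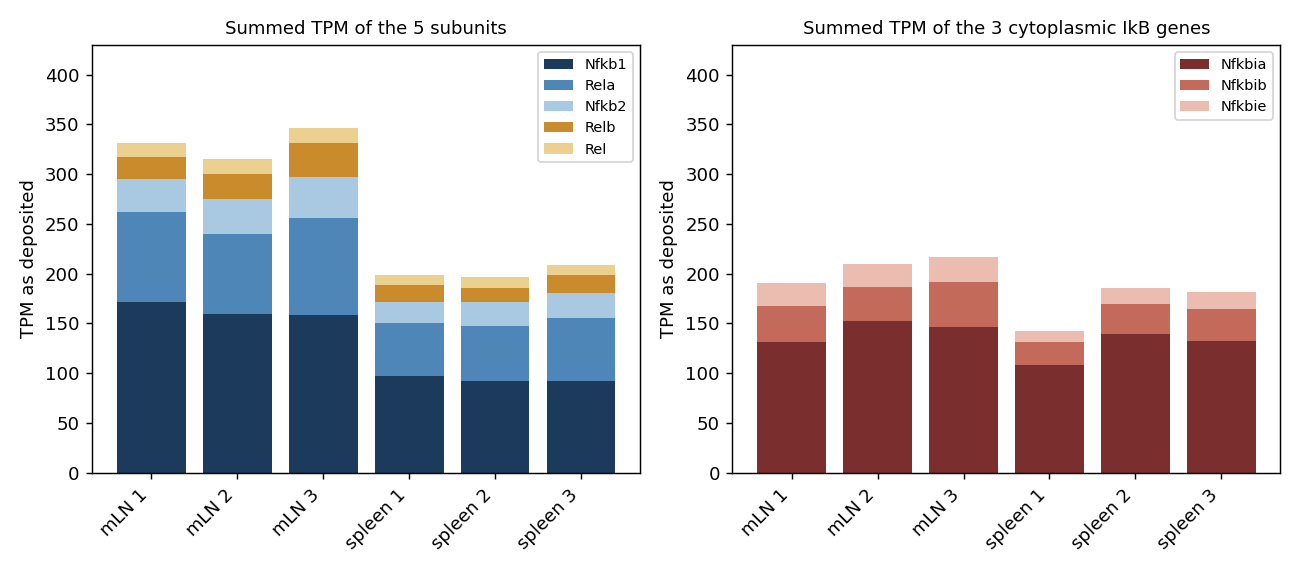
Deposited TPM of the 5 subunit genes (left) and of the 3 cytoplasmic IkB genes (right), stacked per library, on the same linear axis from 0, with mLN libraries before spleen libraries. The subunit sum was 331 ± 15.2 TPM in mLN and 202 ± 6.44 TPM in spleen, and the IkB sum 206 ± 13.3 TPM in mLN and 170.0 ± 23.6 TPM in spleen (SD, n = 3 each).

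Absolute TPM values also carry a shift common to most genes. The organs differed in library composition as well. Ribosomal protein genes took 7.82 to 8.63% of the expected counts in mLN libraries and 11.4 to 11.6% in spleen libraries. Mitochondrial transcripts took 2.12 to 2.43% in mLN and 3.70 to 4.11% in spleen. The part of this composition in the shift was not tested. On log2(TPM + 1), fitted with limma, 2757 genes were higher and 384 lower, which is 22.1% and 3.08% of those tested and 87.8% higher among the calls, against 54.3% higher in edgeR's test on the counts, and the median of all genes was 0.21. On that scale 8 members were higher and 0 lower. With each library centred on its median, 798 genes were higher and 947 lower (6.39% and 7.58%, with 45.7% higher among the calls), and the members called higher were Nfkb1, Rela, Bcl3 and Tnfaip3, 4 in all, with 0 lower. With the length trend removed, 7 members were higher and 0 lower, against 11.7% and 11.2% of all genes. With the GC trend removed, 5 members were higher and 1, Nfkbia, was lower, against 17.9% and 14.3% of all genes.

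Other IkB relatives and the signalling steps above the family included further rises. Both remaining nuclear IkB genes passed the test: Nfkbid rose 1.46-fold (34.4 CPM in mLN and 23.7 CPM in spleen, adjusted p = 0.00265, edgeR), and Nfkbiz rose 1.18-fold (67.8 CPM in mLN and 57.5 CPM in spleen, adjusted p = 0.0392), a call that was lost in 11 of 20 alternative settings, among them the omission of any library other than mLN replicate 1 (adjusted p from 0.0679 to 0.171). Of 29 kinase and adaptor genes 9 rose and 0 fell, and 20 did not pass, against 16.1% and 13.5% of all genes. Their median log2 fold change was 0.099. Map3k14, the kinase of the slower route, rose 1.53-fold (102.9 to 109.5 CPM in mLN and 65.1 to 77.6 CPM in spleen, adjusted p = 1.79e-05, edgeR). Traf3, the adaptor that has that kinase destroyed, rose 1.46-fold (154 CPM in mLN and 105 CPM in spleen, adjusted p = 1.61e-05, edgeR), and its log2 fold change of 0.55 was 0.30 with the length trend removed.

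Bcl10 and Malt1, which relay antigen receptor signals to the IkB kinase, did not pass, with Bcl10 at 1.06-fold (adjusted p = 0.568, edgeR) and Malt1 at 1.06-fold (adjusted p = 0.376; 0.000637 with the GC trend removed). Of the IkB kinase subunits 1 of 3 passed. Ikbkb rose 1.15-fold (395 CPM in mLN and 343 CPM in spleen, adjusted p = 0.00845, edgeR), a call lost on median-centred log2 TPM (0.0637, limma) and with the length trend removed (0.112). Chuk was at 1.03-fold (adjusted p = 0.804) and Ikbkg at 0.948-fold (adjusted p = 0.556, edgeR). Neither passed on median-centred log2 TPM (0.297 for Chuk and 0.529 for Ikbkg, limma). Both were called higher on log2 TPM without centring, where the median of all genes was 0.21. The log2 values there were 0.45 for Chuk (adjusted p = 0.0285) and 0.36 for Ikbkg (adjusted p = 0.0450, limma). Irak1, a kinase below interleukin-1 and Toll-like receptors, rose 1.29-fold (adjusted p = 0.00149), and Rnf31, the catalytic subunit of the linear ubiquitin ligase, rose 1.47-fold on counts (log2 value 0.55, adjusted p = 2.53e-05, edgeR). On log2 TPM the log2 value of Rnf31 was 0.35 (adjusted p = 0.310, limma), and with the libraries centred it was 0.11 (adjusted p = 0.797).

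**Figure D3:**
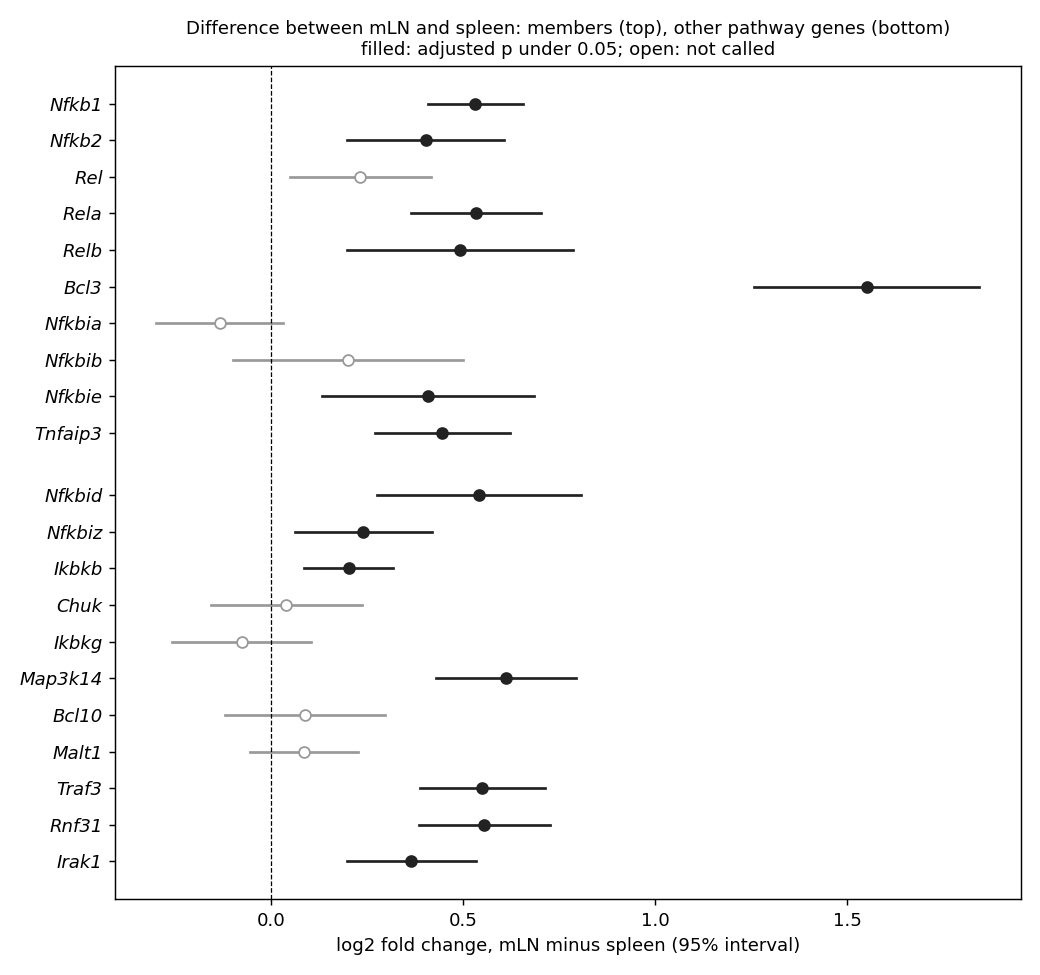
Log2 fold change, mLN minus spleen, with its 95% interval (lines) for the 10 members (upper block) and for 11 further pathway genes (lower block), from edgeR's fit over 12486 genes; filled points passed an adjusted p of 0.05. Bcl3 at 1.55 lies apart from the other members, which range from -0.13 to 0.53, and Map3k14, Traf3 and Rnf31 lie between 0.55 and 0.61.

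Of 8 tested ligand genes 0 rose and 2 fell, against 16.1% and 13.5% of all genes (median log2 fold change -0.040). One was Tnfsf8, which encodes the ligand of CD30, at 79.6 CPM in mLN and 99.5 CPM in spleen (adjusted p = 0.00847, edgeR; 0.0539 without spleen replicate 2, 0.0527 with the GC trend removed, 0.748 on log2 TPM, and 0.113 on centred log2 TPM), and the other was the cytokine gene Il1b, which naive T cells are not known for, at 0.061 to 0.545 CPM in mLN and 6.92 to 7.99 CPM in spleen. Il1b moved with the myeloid markers described above, and their part in it was not tested. Of 12 tested receptor genes 2 rose and 3 fell, against 16.1% and 13.5% of all genes. Both receptors for tumour necrosis factor rose, Tnfrsf1a 1.39-fold (51.9 CPM in mLN and 37.4 CPM in spleen, adjusted p = 0.00104) and Tnfrsf1b 1.34-fold (50.9 CPM in mLN and 38.1 CPM in spleen, adjusted p = 0.00293, edgeR; 0.0976 on centred log2 TPM, and 0.0541 after removal of the GC trend). Cd28, the main costimulatory receptor, fell to 0.769 of its spleen level (227 CPM in mLN and 295 CPM in spleen, adjusted p = 3.81e-04, edgeR; in limma 0.416 on log2 TPM and 0.0441 with the libraries centred). Tnfrsf18 also fell (adjusted p = 0.0241), a call that 8 of 20 alternative settings ended, among them the omission of mLN replicate 1 or 2 or spleen replicate 2 or 3 (0.0541 to 0.128). Tlr4, the receptor for bacterial lipopolysaccharide, was at or below 0.198 CPM in mLN and at 0.685 to 1.14 CPM in spleen (adjusted p = 0.0168, edgeR), near the floor, and lost its call on omission of mLN replicate 1 or 2 or spleen replicate 1 or 2 (0.0545 to 0.0956).

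Among textbook NF-kB target genes 7 of 21 tested rose and 1 fell, against 16.1% and 13.5% of all genes, with a median log2 fold change of 0.082. Nfkbiz and Tnip1 are among the 7 and are also counted in other lists here, so the lists are not separate. Traf1 and Birc3, which did not pass, are also among the kinases and adaptors. With the length trend removed 5 targets rose and 1 fell. Ccnd2, a cyclin of early cell cycle entry, rose 1.51-fold (990.3 CPM in mLN and 655 CPM in spleen, adjusted p = 6.86e-08), and Myc, a growth regulator, rose 1.66-fold (99.5 CPM in mLN and 59.9 CPM in spleen, adjusted p = 2.29e-06, edgeR). Irf4, a factor whose level follows T cell receptor signals, rose 1.93-fold at low level (10.4 CPM in mLN and 5.36 CPM in spleen, adjusted p = 0.00897), and lost its call without mLN replicate 2 (0.0556) or spleen replicate 2 (0.0656) and on median-centred log2 TPM (0.0614). Icam1, an adhesion gene, rose 1.38-fold (adjusted p = 0.00647; 0.0521 without spleen replicate 2 and 0.0705 on centred log2 TPM). Irf1 fell to 0.881 of its spleen level (333 CPM in mLN and 378 CPM in spleen, adjusted p = 0.0185, edgeR), and lost its call on omission of mLN replicate 1 (0.0648), mLN replicate 2 (0.0673) or spleen replicate 2 (0.0583) and on median-centred log2 TPM (0.179, limma). Its log2 fold change of -0.18 was -0.12 on that centred scale and 0.13 without centring (adjusted p = 0.134, limma). The remaining 13 did not pass. Several of these genes respond to other pathways as well. In the same libraries 7 of 12 tested immediate early genes rose and 1 fell (summed level 978 to 1178 CPM in mLN and 741 to 876 CPM in spleen), and 5 of 10 heat shock genes rose and 2 fell, against the same 16.1% and 13.5% of all genes. Both groups also respond to the handling of tissue, and their part in the rises of NF-kB genes was not tested.

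Of the 12 negative regulators beside the members 2 rose and 1 fell, close to the 16.1% and 13.5% of all genes. Tnip1, which encodes a partner of the Tnfaip3 enzyme, rose 1.28-fold (136 CPM in mLN and 106 CPM in spleen, adjusted p = 0.00304, edgeR; 0.101 with the GC trend removed), and N4bp1 rose 1.28-fold (adjusted p = 0.00412; 0.436 with the length trend removed and 0.114 on centred log2 TPM). Tax1bp1, another adaptor of that enzyme, fell to 0.754 of its spleen level (230.4 CPM in mLN and 306 CPM in spleen, adjusted p = 1.84e-04, edgeR; in limma 0.292 on log2 TPM and 0.0294 with the libraries centred).

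Outside the pathway, the genes whose profile over the 6 libraries lay nearest to that of Bcl3 were Osgin1, Tspan9, Spsb1, Socs3 and Acsbg1. Nearness was measured as the root mean square distance between log2 CPM profiles centred on their means, which was between 0.143 and 0.171 for these 5, against a median of 0.840 over the 12472 named genes compared. Socs3, an inhibitor of cytokine receptors, had 307, 329 and 347 CPM in mLN replicates 1 to 3, against 115, 133 and 127 CPM in spleen replicates 1 to 3. Like Bcl3 it was lowest in replicate 1 of either organ. The 5 genes were picked for nearness to Bcl3 over these same libraries, so such likeness and the small distances follow from the choice. The nearest member, Rela, lay at a distance of 0.528 from Bcl3, further than the distance of any other member from its own nearest member.

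**Figure D4:**
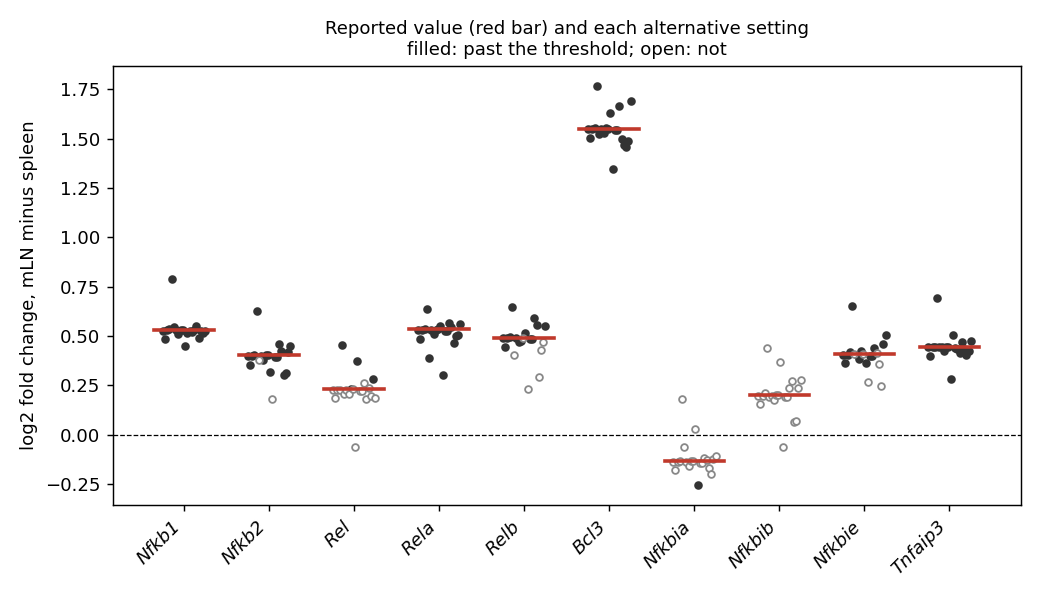
Log2 fold change, mLN minus spleen, of each member as reported (red bars) and in each of 20 alternative settings (points; filled where the call threshold was passed). Nfkb1, Rela, Bcl3 and Tnfaip3 were called in all 20, with Bcl3 between 1.35 and 1.77, whereas Relb and Nfkbie were each called in 14.

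The calls of the members differed in how often they held across the alternatives. Nfkb1, Rela, Bcl3 and Tnfaip3 were higher in mLN and passed in all 20 settings, with log2 fold changes of 0.45 to 0.79 for Nfkb1, 0.30 to 0.64 for Rela, 1.35 to 1.77 for Bcl3 and 0.28 to 0.69 for Tnfaip3. Nfkb2 was higher in all 20 and passed in 18, and Relb and Nfkbie were higher in all 20 and passed in 14 each. Among the further pathway genes named above, Map3k14, Traf3, Irak1, Nfkbid, Tnfrsf1a, Ccnd2 and Myc also passed in all 20.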

How the data were processed

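Members and gene lists were chosen with earlier results of these data known. Directional libraries of polyadenylated RNA were sequenced, per the labels' protocols. The submitters' processing notes name STAR, RSEM and mm10, without versions, annotation or strand setting. The deposited expected counts (estimated counts, not scaled) and the deposited TPM and FPKM are RSEM output per the file headers; FPKM was not used. Symbols were matched for 55141 of 55487 identifiers. Coordinates and GC content came from GENCODE M21 (GRCm38), GC content for 12473 of 12486 tested genes.

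Expected counts were rounded, filtered (filterByExpr), scaled by TMM and tested with edgeR's robust two-sided quasi-likelihood F test, with tissue as sole term, and p-values were adjusted over all 12486 genes (Benjamini-Hochberg). A standard error is the log2 value divided by the root of the F statistic. Software was edgeR 4.0.16, DESeq2 1.42.0 and limma 3.58.1 in R 4.3.3, and Python 3.11.15. The fit was tried on simulated data. Replicates differed by more than sampling noise (chi-square per degree of freedom 5.60 to 12.1).

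Named beside the members are, for each pathway list, the called genes up to 5 by p, the core kinases and adaptors, and the 5 genes nearest in profile to the member with the largest change; Irf1 was named after its values were seen, and 1 gene that this rule selects is not reported here. The 20 alternatives were other scaling (RLE, upper quartile), DESeq2, limma-voom, limma on log2(TPM + 1) as deposited or centred on each library's median, no filter or one at 50 counts, a replicate block, a 0.01 threshold, a length or GC trend removed (loess span 0.3), mitochondrial and ribosomal protein genes or other cells' markers left out, and each library left out.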

Additional observations from a re-analysis of the deposited data

How the results depend on the processing

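The count of members higher in mLN was 7 and moved beyond 1.5 times in 1 setting, median-centred log2 TPM, where it was 4, with 798 genes higher and 947 lower overall; without 1 library it was 5 to 7, and 0 members were lower each time. Leaving out 1 library gave 1500 to 1970 genes higher and 1324 to 1710 lower. The count of genes lower in mLN was 384 on log2 TPM and 1069 at a threshold of 0.01. Removal of the GC trend left 5 members higher and made 1 lower, Nfkbia. Signs turned for Nfkbia on log2 TPM (0.18) and without the length trend (0.030), for Rel without the length trend (-0.060), for Nfkbib without the GC trend (-0.065), for Malt1 without the length trend (-0.075), for Irf1 on log2 TPM (0.13), for Ikbkg on log2 TPM (0.36) and centred (0.11), and for Chuk with upper-quartile factors (-0.0086), without mLN replicate 1 (-0.050) and without spleen replicate 3 (-0.038); the cause was not tested. Summed IkB over summed subunit TPM, mLN minus spleen, was -0.22 and ran from -0.28 to -0.17 without 1 library.

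Of the pathway lists, on log2 TPM 1 ligand was higher and 1 lower, 0 receptors, 0 negative regulators and 0 targets were lower, and 14 kinases and adaptors were higher. On centred log2 TPM 1 nuclear IkB gene, 1 receptor, 1 negative regulator, 4 targets and 5 kinases and adaptors were higher, and 1 ligand, 2 negative regulators and 0 targets were lower. Without the length trend 1 nuclear IkB gene and 5 targets were higher, and 2 receptors, 2 kinases and adaptors and 2 negative regulators were lower. Without the GC trend 2 receptors were higher and 4 lower, 8 targets and 10 kinases and adaptors were higher, and the counts of the other lists were as reported.

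The deviations of same-numbered libraries had correlations of 0.00230 to 0.0652 over all genes, none above 0.1. The highest correlation of any pair was that of replicate 3 in both organs, at 0.0652. By a small margin, mLN replicate 1 correlated better with spleen replicate 2 than with spleen replicate 1. Deviations among 3 libraries balance around their mean, so these low correlations cannot show that same-numbered libraries are unrelated. In both organs replicate 3 differed more from replicates 1 and 2 than these did from each other. For 8 of the 10 members replicate 3 was the highest library in both organs. The numbers were not taken as pairs in the reported test. With the replicate block 8 members were called higher, the count of genes higher in mLN was 2566 and that of genes lower in mLN 2140, Rel being the added member (adjusted p = 0.0106, edgeR). The GC alternative and the omission of libraries for the IkB ratio were chosen after seeing the data. Depth limits Tlr4 and Il1b in mLN, which lay near the floor of 3 counts.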
